A study of Mus musculus with 18 samples.

Results

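The genes described here are those of integrins, laminins and collagens, chosen by symbol: every listed gene whose name begins with Itga, Itgb, Lam followed by a, b or c and a digit, or Col followed by a digit, leaving out integrin-binding proteins (symbols with bp after Itgb) and Itgbl1. The rule found 77 of the 18838 genes listed in any of 3 tables, made up of 27 integrin chains, 10 laminin chains, 39 collagen chains and Col4a3bp, a ceramide transport protein that carries a collagen name but is no collagen. Of these, 55 were listed in all 3 tables.

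RNA was sequenced from small intestinal crypts of 3 wild type (WT) and 3 Mtgr1-/- mice, once on fresh crypts and again after 24 h (day 1) and 72 h (day 3) of growth as enteroids, which are organoids grown from crypts, giving 18 libraries. Mtgr1 (Cbfa2t2) encodes a transcriptional corepressor, and the Mtgr1-/- mice carried the null allele in all cells of the body and were compared with age-matched WT littermates, male and female, from duodenal crypts of mice 8 to 12 weeks old. Both genotypes were plated in Matrigel, a gel of basement membrane proteins rich in laminin and collagen IV, in medium with R-spondin, Noggin and EGF, and only RNA was measured, not the matrix protein around the cells. Each library held 22035316 to 29661084 reads on genes, with a median of 26258539. RNA of the targeted gene was not lower in the libraries labelled Mtgr1-/- (in crypts 614, 523 and 595 in WT against 697, 466 and 534), so Mtgr1-/- is used below as the label of each library.

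Basement membrane is the sheet of matrix on which the intestinal epithelium sits. Laminins, trimers of one alpha, one beta and one gamma chain, and networks of collagen IV form its 2 scaffolds, and epithelial cells hold on to it through integrins, which are pairs of an alpha and a beta chain. The alpha6 beta4 integrin anchors cells to laminin-332 (which holds the chains of Lama3 and Lamb3) in hemidesmosomes, alpha3 beta1 and alpha6 beta1 also bind laminins, alpha1 beta1 and alpha2 beta1 bind collagens, and integrins with an alpha5 or alphav chain bind fibronectin, vitronectin and related ligands. Other integrins, such as alphaE beta7 and those with the beta2 chain, belong to lymphocytes and myeloid cells.

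All values are normalized counts, the reads of a library divided by its scale factor, and they are listed in the order of mice 1, 2 and 3. A gene was tested where its mean in a table was at least 10, and it was called where its adjusted p was below 0.05 (limma on log2(normalized count + 1), Benjamini-Hochberg adjustment over all genes tested, n = 3 libraries from 3 mice per genotype). Log2 fold changes are Mtgr1-/- over WT with their SE. Of the 77 genes, 39 were tested in at least 1 table and 28 in all 3, while 38 stayed below the filter throughout. The 3 tables were normalized separately, so levels at different time points are set side by side without a test. For scale, the median gene of WT libraries moved by 0.13 on the log2 scale from crypts to day 1 and by 0.074 from day 1 to day 3.

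Col4a1 and Col4a2, a pair of collagen genes that share a start region, were both higher in Mtgr1-/- enteroids at day 3. Upstream sequence of some receptor and ligand genes on different chromosomes, which did not all move together, is also shown here for reference. MTG proteins are known to bind E proteins, factors that recognize the E-box CANNTG. The sequences below are the 250 bases before the annotated start in GRCm38 (RefSeq promoter windows), written 5′ to 3′ on the strand of the gene, with each E-box in capitals. Itga1 and Itga5 are shown as the only genes called in crypts, Itgb5 and Lama5 as a receptor and a ligand chain that were higher in Mtgr1-/- enteroids on both days.
Itga1, chr13:115101965-115102214, minus strand: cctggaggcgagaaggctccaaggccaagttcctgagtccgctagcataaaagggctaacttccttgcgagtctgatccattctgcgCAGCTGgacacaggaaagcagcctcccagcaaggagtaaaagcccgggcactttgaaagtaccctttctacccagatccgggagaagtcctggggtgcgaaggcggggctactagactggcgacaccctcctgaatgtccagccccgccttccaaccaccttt
Itga5, chr15:103366792-103367041, minus strand: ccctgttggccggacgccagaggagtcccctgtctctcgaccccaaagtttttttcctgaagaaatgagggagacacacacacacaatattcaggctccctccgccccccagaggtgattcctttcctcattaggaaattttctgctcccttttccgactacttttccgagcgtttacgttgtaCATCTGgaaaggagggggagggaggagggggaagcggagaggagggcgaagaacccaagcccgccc
Itgb5, chr16:33829415-33829664, plus strand: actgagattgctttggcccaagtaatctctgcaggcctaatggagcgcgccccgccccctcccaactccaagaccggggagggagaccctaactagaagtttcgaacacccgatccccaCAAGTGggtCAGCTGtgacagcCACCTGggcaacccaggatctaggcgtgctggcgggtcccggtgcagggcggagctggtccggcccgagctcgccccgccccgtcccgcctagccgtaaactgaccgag
Lama5, chr2:180225860-180226109, minus strand: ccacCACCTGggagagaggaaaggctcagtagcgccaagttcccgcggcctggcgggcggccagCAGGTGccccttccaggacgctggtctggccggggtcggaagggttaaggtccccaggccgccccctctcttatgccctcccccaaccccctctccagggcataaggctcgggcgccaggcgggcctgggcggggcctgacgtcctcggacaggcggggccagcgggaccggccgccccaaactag
The Itga1 and Itga5 windows hold 1 E-box each, that of Lama5 holds 2 and that of Itgb5 holds 3. The windows shown thus all hold the motif, which is not so for the called genes as a whole. Among other genes higher on both days, the windows of Itgav and Col18a1 hold 0, each window of Itga3 holds 1 and each of Itgb6 holds 3. Those of Col4a1, Col4a2, Col7a1 and Itgb1 also hold 0. Over the members, 39 of 60 windows (65%) hold an E-box, and 21753 of all 32851 windows (66.2%) do, so the share with the motif is close to that of promoters in general. Other motifs can overlap an E-box, and a match is only a run of letters. Windows were found for 54 of the 77 genes. Lama3, Itga6 and Itgb4 are named only.
Col4a1 and Col4a2 lie head to head on chromosome 8, Col4a1 at 11198423 to 11312826 on the minus strand and Col4a2 at 11312805 to 11449287 on the plus strand (GENCODE M21, GRCm38), and the first bases of both genes overlap. The shared stretch is printed because the pair is described together below.
Col4a1 and Col4a2 start overlap, chr8:11312805-11312826, plus strand: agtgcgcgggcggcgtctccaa

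In fresh crypts, the RNA of most chains did not pass the test between genotypes. Of 37 genes tested, 1 was higher in the libraries labelled Mtgr1-/- (Itga5) and 1 was lower (Itga1), 5.41% of those tested against 4.73% of all 12980 genes in the table (1.58% higher and 3.15% lower). The genotypes did not overlap for 13 of the 37, against 25.5% of all genes. At an unadjusted p below 0.05 there were 14 of the 37, against 2395 of all 12980 genes. The median log2 fold change of the 37 was -0.56, against 0.0076 over all genes. WT crypt library 3 stood apart in leukocyte RNA: Ptprc, the pan-leukocyte gene, was 408, 377 and 3795 in WT and 304, 144 and 450.3 in Mtgr1-/- crypts. Without that library the same 2 genes were called, and the median of the 34 genes then tested was -0.238. The 16 immune markers summed to 40487, 39749 and 54091 in WT and 4134, 6885 and 7633 in Mtgr1-/- crypts, most of it Cd74 (-3.00 ± 0.28, adjusted p = 0.00255), the invariant chain of MHC class II, which gut epithelium can express too. The other 15 markers summed to 2860, 2514 and 25930 against 1334, 764 and 3170.2, with negative log2 fold changes in 15 of 15 and none called by limma. The part of leukocyte content in the crypt values was not tested.

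Itga5, the fibronectin receptor alpha chain, was 189, 219.8 and 96.7 in WT crypts and 687, 683 and 462 in Mtgr1-/- crypts. All 3 Mtgr1-/- libraries lay above all 3 WT libraries, and the lowest WT value was in library 3. The log2 fold change was 1.91 ± 0.33 (adjusted p = 0.0237, limma). Itga5 was called on neither day of culture, at 261, 262 and 215 in WT against 332, 258 and 254 at day 1 (log2 fold change 0.19 ± 0.16, adjusted p = 0.337) and 258, 259 and 232 against 332, 155 and 244 at day 3 (-0.10 ± 0.25, adjusted p = 0.741). The groups overlapped on both days. Itga5 was 1 of 7 members, of 28 tested, whose genotype difference changed from crypts to day 1, against 41.4% of all 12145 genes. Its change was -1.73 ± 0.41 (adjusted p = 0.00474, limma on all 18 libraries).

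Itga1, the alpha chain of a collagen receptor, was 568, 504 and 1631 in WT crypts and 165, 164 and 165 in Mtgr1-/- crypts, a log2 fold change of -2.23 ± 0.42 (adjusted p = 0.0326). WT library 3, the one rich in Ptprc, was the highest, and the other WT libraries were also far above the Mtgr1-/- libraries, which were nearly equal. Itga1 remained lower in the enteroids, at 493, 410.3 and 485 against 115, 180.2 and 201 on day 1 (-1.51 ± 0.21, adjusted p = 0.000913) and 629, 521 and 517 against 344, 369.8 and 346 on day 3 (-0.65 ± 0.11, adjusted p = 0.00178). The genotypes did not overlap at any time point. With 5 of the 6 crypt libraries, both genes kept their direction while calls were often lost. The log2 fold changes then ranged from 1.56 to 2.14 for Itga5 and from -2.54 to -1.70 for Itga1. Itga5 was 2.04, 1.82 and 1.82 without WT library 1, Mtgr1-/- library 1 or Mtgr1-/- library 2 (adjusted p = 0.0782, 0.0889 and 0.0633). Itga1 was between -2.54 and -2.23 without WT library 1 or 2 or any 1 of the Mtgr1-/- libraries (0.0527 to 0.103). Without WT library 3, which is the high one for Itga1, both were called, at 1.56 and -1.70.

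Other epithelial laminin and collagen receptor chains were not called in crypts by limma with genotype alone. Itga3 was 4761, 4890.4 and 5076 in WT and 5180.1, 5542 and 6899 in Mtgr1-/- crypts (log2 fold change 0.25 ± 0.12, adjusted p = 0.34), and Itgb4 was 2863, 2889 and 2578 against 3523, 3172 and 4582 (0.42 ± 0.14, adjusted p = 0.178). For both, each Mtgr1-/- library was above each WT library. Itga2, the alpha chain of the other collagen receptor, was 1109, 1209 and 883 against 656, 893 and 476 (-0.69 ± 0.24, adjusted p = 0.178, or 0.0481 when blocked on mouse number), and its groups overlapped. Lamb3, the beta chain of laminin-332, was 219, 262 and 183 against 98, 168 and 107 (-0.86 ± 0.25, adjusted p = 0.124, or 0.0467 without Mtgr1-/- library 2) without overlap, whereas Lama3 (48.9, 16.8 and 143 against 68.8, 182 and 112) overlapped. Col15a1, a collagen of basement membrane zones, was tested in crypts only, at 15.3, 8.91 and 29.9 in WT and 98, 22.8 and 95.5 in Mtgr1-/- (1.84 ± 0.68, adjusted p = 0.213), where 1 Mtgr1-/- library fell among the WT libraries.

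At day 1 of culture, 13 of 30 genes tested were called, 9 higher and 4 lower in the enteroids labelled Mtgr1-/-. That is 43.3%, against 58.9% of all 12587 genes, 30% being higher and 28.9% lower. At day 3, 18 of 32 were called, 16 higher and 2 lower, or 56.25% against 59% of all 12782 genes, with 29.9% higher and 29.1% lower over all genes. The median log2 fold change of the members was 0.22 at day 1 and 0.76 at day 3, against -0.008 and 0.0026 over all genes. With quantile normalization in place of the scaling of the authors, the split of the members at day 3 was 16 higher and 5 lower, and that of all genes was not computed. The genotypes did not overlap for 15 genes at day 1 and 20 at day 3, against 68.1% and 68.8% of all genes. Of the 13 genes called at day 1, 11 (84.6%) were called at day 3, each in the same direction, and they were 61.1% of the 18 called at day 3. Since most genes of the table differed between genotypes in enteroids, a call alone does not set these genes apart.

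**Figure D1:**
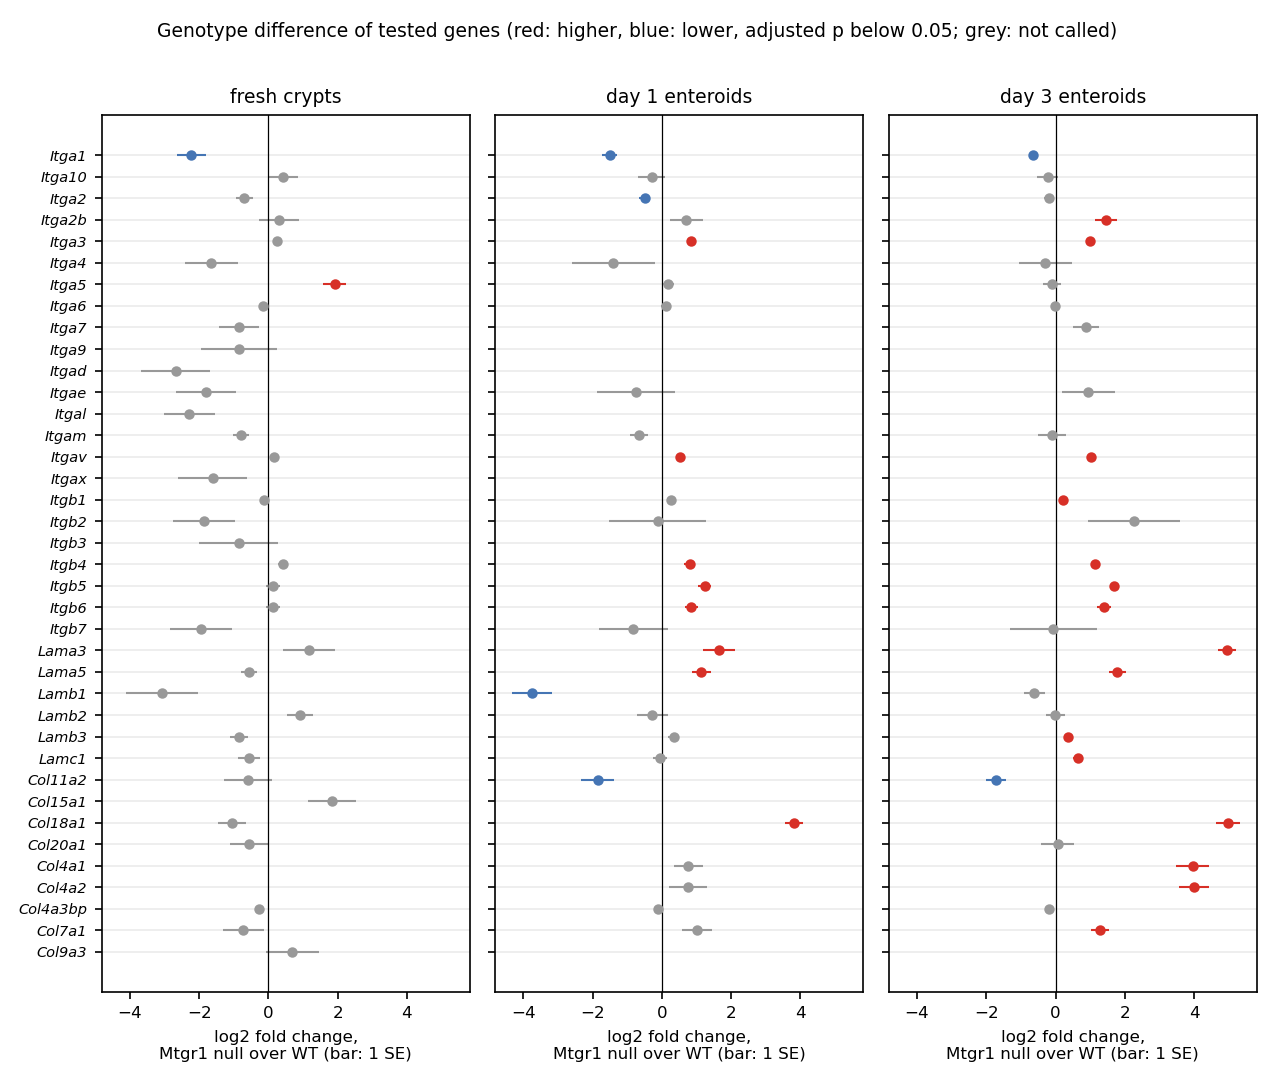
Log2 fold change (Mtgr1 null over WT, horizontal axis, bar 1 SE) of genes that passed the filter, in fresh crypts, day 1 and day 3 enteroids from left to right, with red for genes called higher, blue for lower and grey for not called. In crypts only Itga5 and Itga1 are coloured, while at day 3 most coloured genes are red, with Lama3, Col18a1, Col4a1 and Col4a2 farthest to the right.

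The alpha and beta chains of laminin-332 differed unequally between genotypes at day 3. Lama3 (chromosome 18 of GRCm38), the alpha chain, was 46.6, 22.3 and 35.8 in WT and 1255, 979 and 988 in Mtgr1-/- enteroids, which was 30.8-fold by the means (log2 fold change 4.96 ± 0.25, adjusted p = 9.46e-06). Every Mtgr1-/- library lay far above every WT library. Lamb3, the beta chain (chromosome 1, 193207699 to 193343878), was 1192, 1248 and 1074 against 1754, 1432 and 1354, only 1.29-fold (0.36 ± 0.11, adjusted p = 0.0254), and this call was lost without WT library 1, WT library 3 or Mtgr1-/- library 1 (adjusted p = 0.0593, 0.0963 and 0.0568).

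Over the culture, the mean levels of Lama3 ran differently in the 2 genotypes when set side by side. The change of its genotype difference from crypts to day 1 was not called (0.48 ± 0.86, adjusted p = 0.678, limma on all 18 libraries), and that from day 1 to day 3 is given below. At day 1, Lama3 was 222, 101.0 and 371 in WT and 885, 447 and 655 in Mtgr1-/- (1.65 ± 0.45, adjusted p = 0.0149, 0.0552 without Mtgr1-/- library 1). No library of one genotype reached into the range of the other. In WT, its mean was 69.5 in crypts, 232 at day 1 and 34.9 at day 3, so that the level at day 1 was 3.33 times that in crypts and 6.63 times that at day 3. In Mtgr1-/-, the corresponding means were 121, 662 and 1074. Lamb3 showed no such fall in WT, with means of 222, 1038 and 1171.

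The test of whether the genotype difference itself changed between day 1 and day 3 called none of the 28 members that could be tested (limma on all 18 libraries, where 0.0329% of all 12145 genes were called). Of the 28, 5 had an unadjusted p below 0.05, and the share of all genes at that threshold was not computed. Lama3 changed by 3.31 ± 0.86 (adjusted p = 0.192). In a fit of the 12 enteroid libraries alone, an alternative chosen after seeing the data, 2 of 30 members tested were called, Lama3 among them (adjusted p = 0.0425, limma), where 0.491% of all 12432 genes were called. In bulk RNA, a larger share of cells that express a gene and more RNA of it per cell cannot be told apart, for this and all genes below.

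Per kilobase of exon, these alpha and beta chains were far apart in WT enteroids at day 3, with Lama3 at 3.25 and Lamb3 at 177 normalized counts per kilobase. In Mtgr1-/- enteroids they were 100 and 229. The level of Lamb3 was thus 54.5 times that of Lama3 per kilobase in WT and 2.29 times in Mtgr1-/-.

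Of the other laminin chains, Lama5, the alpha chain of the laminins of adult epithelia, was 230.5, 246 and 210.4 in WT and 592, 681 and 314 in Mtgr1-/- at day 1 (1.13 ± 0.27, adjusted p = 0.00825), and 465, 323 and 337 against 1902, 1155 and 948 at day 3 (1.78 ± 0.25, adjusted p = 0.000694). In crypts its direction was the opposite, at 80.5, 95 and 116 against 61.2, 74.2 and 60 (-0.56 ± 0.23, adjusted p = 0.246), a value that was not called. The genotypes did not overlap at any of the 3 time points. Lamc1, the gamma chain shared by most laminins, was not called at day 1 (-0.056 ± 0.19, adjusted p = 0.815) and was higher at day 3, at 1043, 895 and 1184 against 1736, 1751 and 1388 (0.64 ± 0.13, adjusted p = 0.00383).

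Lamb1, a beta chain that pairs with Lamc1, went the other way at day 1. It was 76.8, 36.4 and 81.3 in WT and 5.83, 5.69 and 1.1 in Mtgr1-/- enteroids (-3.76 ± 0.57, adjusted p = 0.0012), and in crypts 25.9, 38.6 and 117 against 0.942, 25.7 and 3.05 (-3.08 ± 1.05, adjusted p = 0.175). At day 3 the levels had come close, 49.3, 34.7 and 29 against 27.3, 17.9 and 26.9 (-0.62 ± 0.30, adjusted p = 0.112). Its highest crypt value was in WT library 3. No library crossed between the genotypes at any time point. Lamb2, the alternative beta chain, was not called in any table.

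Lama1, the alpha chain of laminin-111, was at 0 in all 9 WT libraries and between 1.1 and 7.61 in the 9 Mtgr1-/- libraries, and Lama4 was between 0 and 12.7 in WT against at most 1.17 in Mtgr1-/-. Both were too low to be tested.

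**Figure D2:**
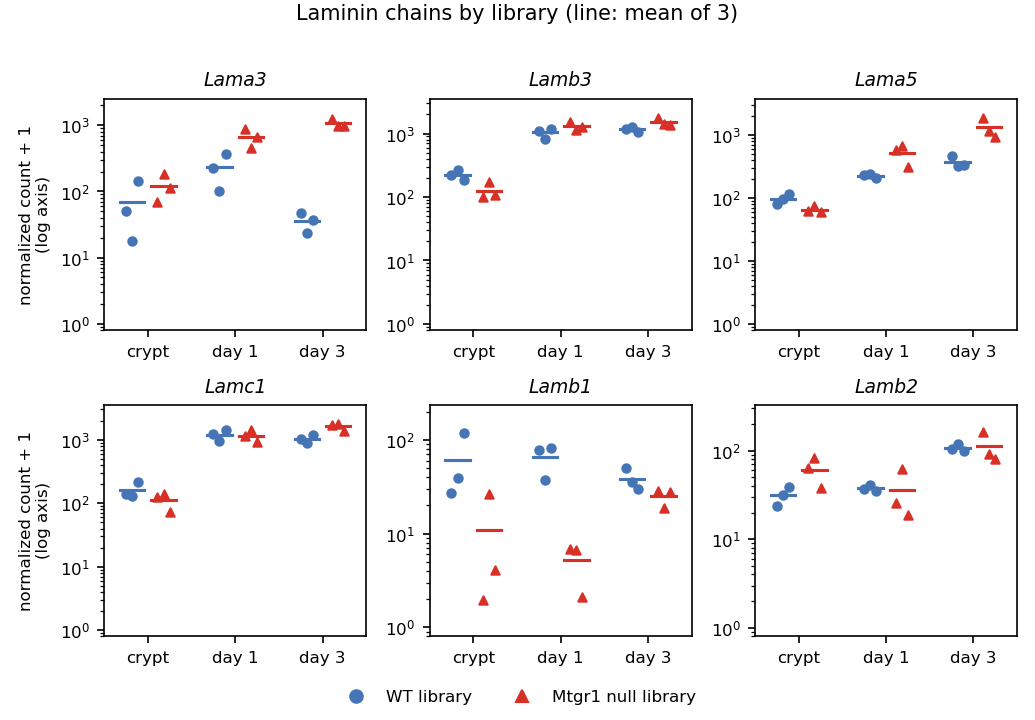
Normalized count plus 1 (log axis) of 6 laminin chains in each library, WT as blue circles and Mtgr1 null as red triangles, in crypts, day 1 and day 3, with the mean of 3 as a line. The WT points of Lama3 drop from day 1 to day 3 (from a mean of 232 to 34.9) while the Mtgr1 null points stay high (662 and 1074), while Lamb3 shows a small gap at day 3 and Lamb2 overlaps.

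Collagen IV, the network collagen of basement membranes, was close to absent from crypts, where the highest library of Col4a1 was at 11.5 and of Col4a2 at 4.6. At day 1, Col4a1 was 42.1, 26 and 32.7 in WT and 51.3, 106 and 33.1 in Mtgr1-/- and Col4a2 was 49.4, 29.2 and 36 against 73.5, 132 and 26.5, with overlapping groups. Neither was called (adjusted p = 0.159 and 0.257), although both were without Mtgr1-/- library 3 (0.0443 and 0.0172). At day 3, Col4a1 was 79.8, 26.7 and 129.7 in WT against 1227, 1039 and 857 in Mtgr1-/-, 13.2-fold (3.96 ± 0.49, adjusted p = 0.000353), and its neighbour Col4a2 90.5, 31.2 and 110.4 against 1339, 1178 and 848, 14.5-fold (4.0 ± 0.43, adjusted p = 0.000178). The lowest Mtgr1-/- library was several times the highest WT library for both genes. Per kilobase the pair stood at 10.5 and 11.7 in WT and at 139 and 169 in Mtgr1-/-. Col4a3, Col4a4 and Col4a5 reached at most 3.81 in any library. The change of the genotype difference from day 1 to day 3, in the 12 enteroid libraries alone, was 3.19 for Col4a1 (adjusted p = 0.097) and 3.24 for Col4a2 (adjusted p = 0.117).

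Col18a1, the multiplexin whose C-terminal fragment is endostatin, had the largest log2 fold change of the members at both days of culture. It was 10.1, 9.37 and 13.4 in WT and 196, 168 and 136 in Mtgr1-/- at day 1 (3.81 ± 0.26, adjusted p = 7.48e-05) and 17, 6.23 and 8.71 against 427, 264 and 351 at day 3 (4.98 ± 0.35, adjusted p = 2.68e-05). In crypts the order was the reverse, at 56.5, 46.5 and 114 in WT and 35.8, 23.8 and 38.6 in Mtgr1-/- (-1.04 ± 0.40, adjusted p = 0.231), with no overlap and no call, and WT library 3 was again the highest. From crypts to day 1 the WT mean went from 72.3 to 10.9 and the Mtgr1-/- mean from 32.7 to 166. The genotype difference changed by 4.85 ± 0.51 on the log2 scale between these times (adjusted p = 0.000155, limma).

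Among the remaining collagens, Col7a1, which forms the anchoring fibrils below stratified epithelia, was higher at day 3 (28.7, 24.9 and 31 against 96.7, 57.7 and 61.8, 1.29 ± 0.26, adjusted p = 0.00348). Col11a2, a minor fibrillar chain, was lower at day 1 (17.4, 15.6 and 15.9 against 2.33, 6.64 and 3.31, -1.85 ± 0.47, adjusted p = 0.0111) and at day 3 (28.7, 31.2 and 32.9 against 7.96, 8.95 and 8.98, -1.73 ± 0.29, adjusted p = 0.00142). Both were low, and neither group overlapped the other where they were called. The fibrillar collagens of connective tissue were near 0: the highest library of Col1a1 was at 16.1, of Col1a2 at 10.4 and of Col3a1 at 27.6, all in fresh crypts, and Col17a1, the hemidesmosomal collagen, reached 8.06. Of the 38 genes that were never tested, 31 were collagen chains, 3 laminin chains and 4 integrin chains.

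**Figure D3:**
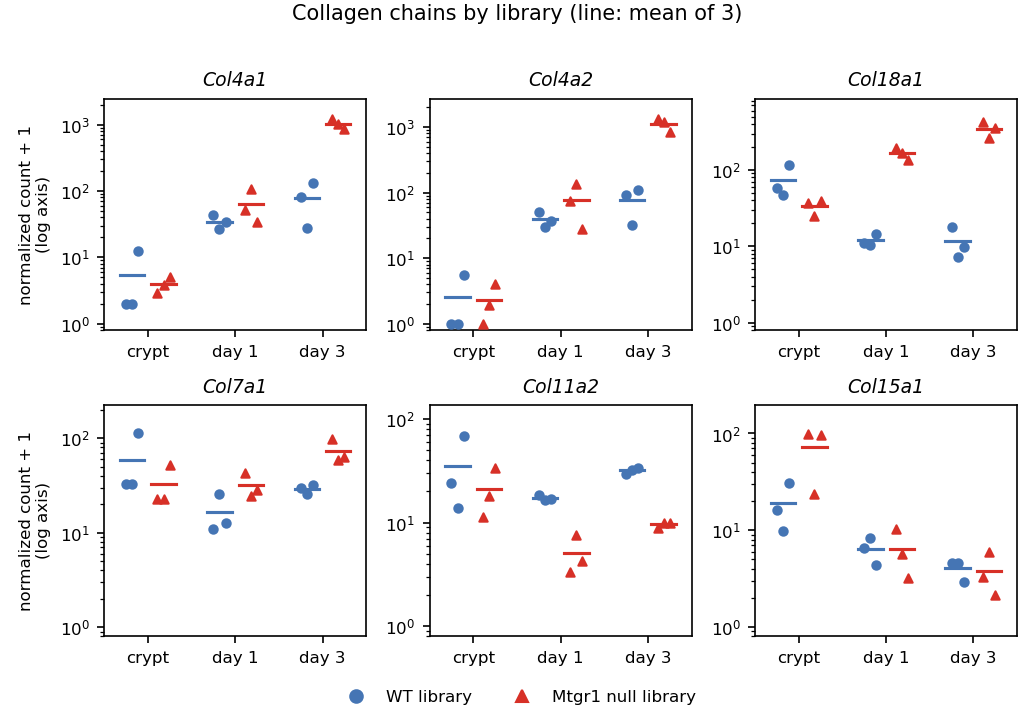
Normalized count plus 1 (log axis) of 6 collagen chains in each library by time point, WT as blue circles and Mtgr1 null as red triangles, with the mean of 3 as a line. The 3 Mtgr1 null libraries of Col4a1 and Col4a2 stand apart from WT at day 3 (means of 1041 and 1122 against 78.7 and 77.4) and not at day 1, whereas Col18a1 stands apart on both days.

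Among the integrin chains that bind laminin, Itga6, Itga3, Itgb4 and Itgb1 were abundant, and some of them differed between genotypes while others did not pass the test. Itga6 was 9591, 8191 and 10388 in WT and 11759.5, 8569.5 and 10466 in Mtgr1-/- at day 1 (0.12 ± 0.14, adjusted p = 0.479) and 8206, 7466 and 8484 against 8367, 7482 and 7851 at day 3 (-0.027 ± 0.09, adjusted p = 0.798), although with quantile normalization the day 3 value was -0.30 (adjusted p = 0.0249) and that of day 1 was -0.27. Its partner Itgb4 was 2497, 2398 and 3496 against 4712, 4343 and 5359 at day 1 (0.80 ± 0.16, adjusted p = 0.00341) and 2091, 2322 and 2369.7 against 5121, 5064 and 4792 at day 3 (1.14 ± 0.08, adjusted p = 2.42e-05). The Itgb4 groups were apart on both days and those of Itga6 overlapped. Itga7, a laminin-binding alpha chain best known from muscle, was low, at 13.4, 8.02 and 12.6 against 14.8, 24.9 and 25.8 at day 3 (0.88 ± 0.37, adjusted p = 0.0703), and was called neither in crypts nor at day 3. Per kilobase, Itga6 was 2.77 times Itgb4 in WT and 1.23 times in Mtgr1-/- at day 3, and 2.1 and 1.39 times in crypts.

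Itga3, the other epithelial laminin receptor alpha chain, was 3883, 3354 and 3862 in WT and 6586, 6146 and 7117 in Mtgr1-/- at day 1 (0.84 ± 0.10, adjusted p = 0.000413) and 2888, 2930.2 and 3309.7 against 5447, 7035 and 5659 at day 3 (0.98 ± 0.11, adjusted p = 0.000247), with no overlap. Its beta chain Itgb1, which pairs with most alpha chains, was 8260.1, 6780.3 and 7559.6 against 9772, 8469.9 and 8836 at day 1 (0.26 ± 0.10, adjusted p = 0.0606, or 0.0142 with the mouse number as a block, which pairs WT and Mtgr1-/- mice of the same number, 0.0391 by DESeq2 on recovered reads, 0.0498 without WT library 1 and 0.0383 without Mtgr1-/- library 2) and 6701, 6461 and 6778 against 7864, 7823 and 7585 at day 3 (0.22 ± 0.07, adjusted p = 0.0251). The direction of Itgb1 depends on the scaling, since with quantile normalization it was -0.092 at day 1 and -0.085 at day 3 and not called. Its day 3 call was lost in 5 of the 6 fits that left out 1 library, all but the one without Mtgr1-/- library 2 (0.0549 to 0.0871). With the mouse number as a block, Lamb3 was also called at day 1 (1114, 819 and 1181 against 1502, 1132 and 1282, 0.34, adjusted p = 0.0258, against 0.108 without it).

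Itga2, which with Itgb1 makes the epithelial collagen receptor, was lower at day 1 (2140.0, 1967 and 1800.2 against 1639.6, 1509 and 1075, -0.50 ± 0.16, adjusted p = 0.0272, but 0.0901 without WT library 1 and 0.0704 without WT library 2). At day 3 the groups overlapped, at 2660.2, 2272 and 2479 against 2525, 2060.0 and 1893 (-0.20 ± 0.12, adjusted p = 0.172, or 0.0235 without Mtgr1-/- library 1 and 0.0423 with quantile normalization). The collagen receptor alpha chains Itga1 and Itga2 thus had negative values at all 3 time points, while the ligand chains Col4a1 and Col4a2 were higher at day 3. Itga10, the other tested chain of this group, was not called in any table.

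Receptors of the alphav group were higher in the Mtgr1-/- enteroids on both days. Itgav, the alpha chain, was 869.7, 722 and 799 in WT and 1357, 1034 and 1069 in Mtgr1-/- at day 1 (0.53 ± 0.13, adjusted p = 0.00973) and 676, 507 and 681 against 1322, 1312 and 1146 at day 3 (1.03 ± 0.13, adjusted p = 0.000431). Itgb5, its partner in the vitronectin receptor, was 530.4, 410.3 and 565 against 1239.6, 906 and 1414 at day 1 (1.23 ± 0.19, adjusted p = 0.00125) and 389.9, 374 and 414 against 1176, 1244 and 1365 at day 3 (1.68 ± 0.09, adjusted p = 1.12e-05), having been 655, 513 and 870.2 against 783, 653 and 752 in crypts (0.13 ± 0.20). Itgb6, an epithelial partner of Itgav known for activating latent TGF-beta, was 726, 563 and 724 against 1348, 922 and 1389.7 at day 1 (0.85 ± 0.18, adjusted p = 0.00501) and 384, 426 and 330.1 against 1377, 783 and 917 at day 3 (1.4 ± 0.20, adjusted p = 0.000773). None of these 3 genes overlapped between genotypes in the enteroids, and all 3 were within 0.16 on the log2 scale in crypts. Itga2b, a platelet chain, was higher at day 3 at low levels (9.86, 10.7 and 9.68 against 23.9, 38.8 and 26.9, 1.45 ± 0.31, adjusted p = 0.00477).

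**Figure D4:**
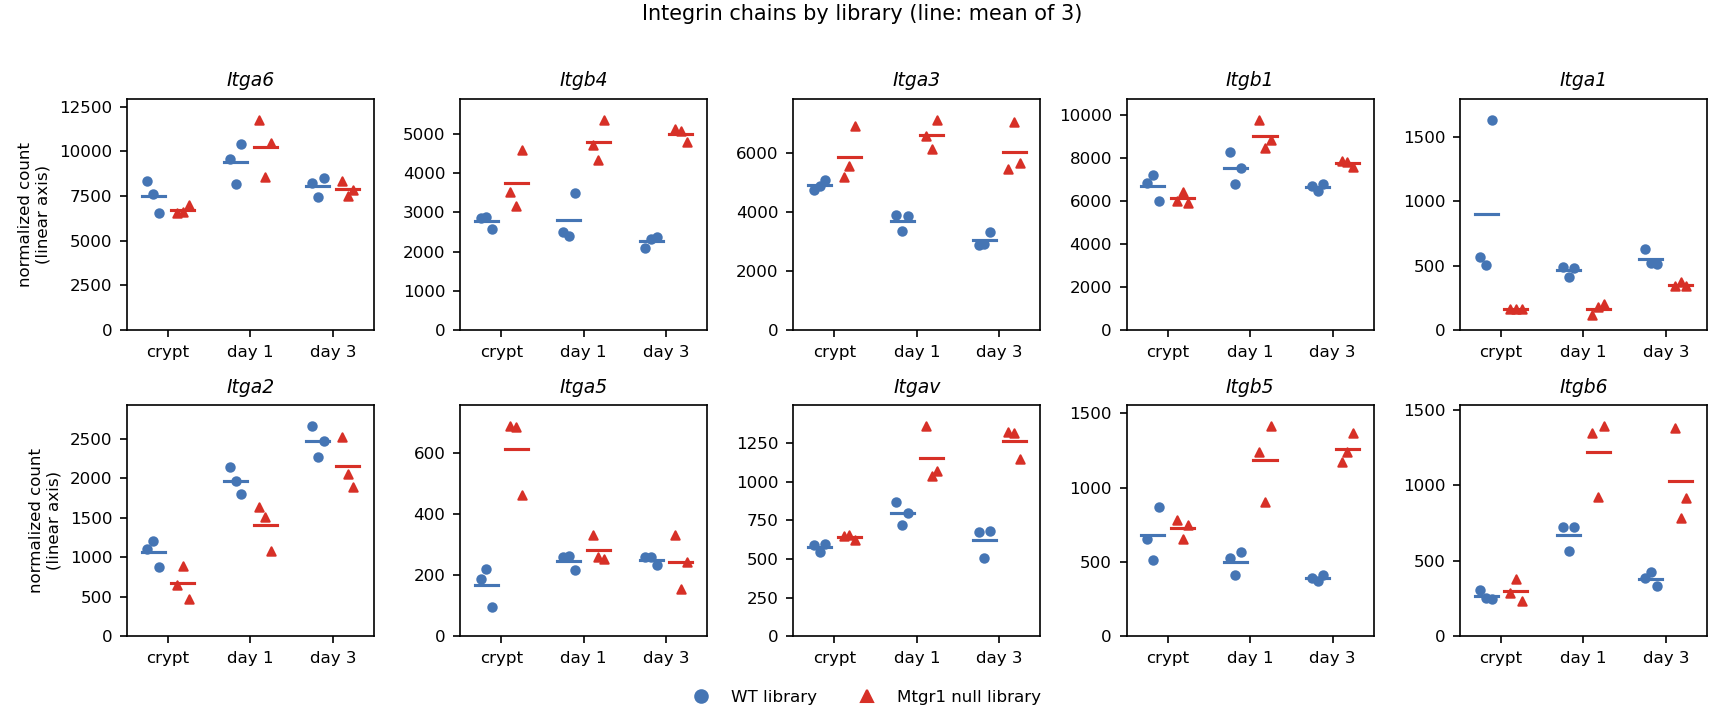
Normalized count (linear axis from 0) of 10 integrin chains in each library by time point, WT as blue circles and Mtgr1 null as red triangles, with the mean of 3 as a line. Itgb4, Itga3, Itgav, Itgb5 and Itgb6 are higher in Mtgr1 null enteroids, Itga1 is lower at all 3 time points, Itga5 is called in crypts and on neither day of culture, and Itga6 overlaps in enteroids.

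The leukocyte integrin chains had their highest values in single libraries. In crypts, Itgae, the alpha chain of intraepithelial lymphocytes, was 367, 302 and 2789 in WT and 198, 105 and 339 in Mtgr1-/-, its partner Itgb7 116, 82.2 and 828 against 52.7, 25.7 and 97.6, Itgal 86.2, 80.2 and 531 against 20.7, 34.2 and 41.7 and Itgb2 101.6, 87.1 and 840.3 against 36.7, 38 and 106. WT library 3 was the highest for each, as it was for Ptprc, Itga4, Itgad and Itgax. None of the 7 leukocyte chains tested was called by limma (log2 fold changes from -2.67 for Itgad to -0.79 for Itgam, adjusted p from 0.117 to 0.451). DESeq2 on the recovered reads called Itgal (-2.86, adjusted p = 0.00258) and Itgb7 (-2.56, adjusted p = 0.0247) lower in Mtgr1-/- crypts.

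In enteroids, Itgae, Itgb2, Itgb7 and Itgax were highest in Mtgr1-/- library 3 on both days, while Itgal, Itgad and Itgam were highest in WT library 3 at day 1. Itgae was 5.83, 3.79 and 114 at day 1 and 5.69, 13.9 and 66.2 at day 3 in Mtgr1-/- libraries 1 to 3, against 19.2, 18.7 and 43.6 and 7.17, 8.91 and 10.6 in WT. Ptprc was also highest in library 3 of the Mtgr1-/- libraries, at 11.7, 15.2 and 187 at day 1 and 3.41, 7.95 and 129 at day 3. Itgb2 was 0, 3.79 and 55.1 at day 1 and 1.14, 5.97 and 99.9 at day 3. Its log2 fold change at day 3 was 2.26 ± 1.33 and not called by limma (adjusted p = 0.174), but it was 3.48 without Mtgr1-/- library 1 (adjusted p = 0.0343), and on recovered reads 4.17 by edgeR (adjusted p = 0.0481) and 4.25 by DESeq2 (adjusted p = 0.0494). Likewise Itgae at day 3 was called without Mtgr1-/- library 1 (1.69, adjusted p = 0.0477). Without Mtgr1-/- library 3, Itgae and Itgb7 were lower at day 1 (-2.19 and -2, adjusted p = 0.0121 and 0.0369). Itgam, the alpha chain of the myeloid integrin Mac-1, behaved apart from these: it was 460.0, 426 and 411 in WT crypts with no excess in library 3, and 81.6, 67.7 and 77.4 in WT at day 3, when Itgb2, the beta chain it needs, was 0, 1.78 and 3.87.

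**Figure D5:**
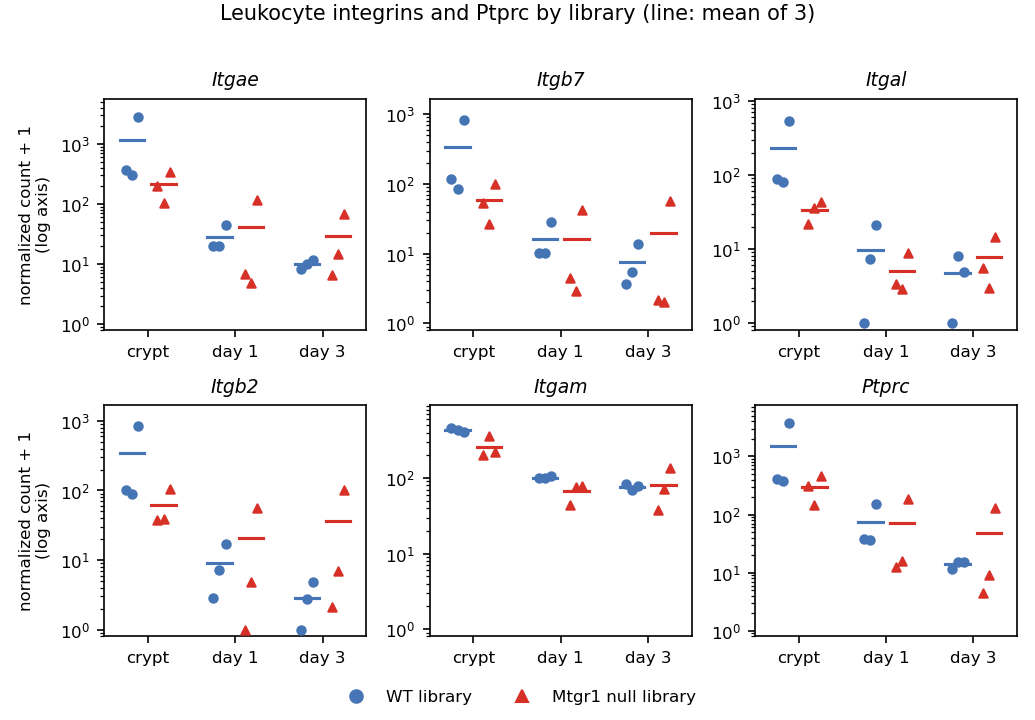
Normalized count plus 1 (log axis) of 5 leukocyte integrin chains and of Ptprc in each library by time point, WT as blue circles and Mtgr1 null as red triangles, with the mean of 3 as a line. WT library 3 in crypts and Mtgr1 null library 3 in enteroids stand above the other libraries of their group for every chain shown except Itgam. For Itgam, WT library 3 shows no excess in crypts, and the Mtgr1 null values at day 1 are 43.1, 74.9 and 78.3.

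Markers of other cells were checked against the members. The 10 epithelial markers (Epcam, Krt8 and others) were all present, with summed levels of 217735 to 254941 in WT and 261521 to 306052 in Mtgr1-/- crypts, 237444 to 294230 and 323271 to 421555 at day 1, and 181168 to 202099 and 311615 to 322166 at day 3. They were thus higher in sum in Mtgr1-/- libraries at all 3 time points. Of the 10, 1 was called in crypts (higher), 5 were higher and 1 lower at day 1, and 6 higher and 1 lower at day 3. These were 10%, 60% and 70% called, against 4.73%, 58.9% and 59% of all genes. Their part in the calls of the members was not tested. The 16 immune markers summed to 4891 to 7397 in WT and 507 to 2156 in Mtgr1-/- at day 1 and to 838 to 1715 and 184 to 2830 at day 3, again with Cd74 the most abundant. Without Cd74 the Mtgr1-/- sums were 75.8, 76.8 and 1000.4 at day 1 and 75.1, 94.4 and 1260 at day 3, against 128, 119 and 567 and 26.9, 43.6 and 69.7 in WT. Of the 12 fibroblast markers, 10 were listed in crypts, 6 at day 1 and 7 at day 3, with Lum and Twist1 in no table. Their summed levels were 2507 to 2770.2 in WT and 3629 to 4808 in Mtgr1-/- at day 1 and 2819 to 3066 and 3226 to 4183 at day 3. At day 1, 3 were higher and 1 lower of 4 tested. At day 3, 1 was higher and 1 lower of 4. These were 100% and 50% called, against 58.9% and 59% of all genes. In crypts, 0 of 5 were called. Fn1, one of these markers and itself an integrin ligand, was 31.4, 24.9 and 8.71 in WT and 465, 401 and 348 in Mtgr1-/- at day 3. Endothelial markers summed to 155 to 195 in WT and 33.8 to 52.8 in Mtgr1-/- at day 3, and smooth muscle markers to at most 8.96. Of the 10 endothelial markers, 7 were listed at day 3, without Kdr, Emcn and Cldn5, and 2 were tested, with 1 lower and 1 not called. That was 50% called, against 59% of all genes. The part of endothelial cells in the values of Col4a1, Col4a2 and Col18a1 was not tested.

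Genes of related lists are given beside the share called over all genes, 58.9% at day 1 and 59% at day 3. Of the hemidesmosome list (Plec, Dst, Cd151, Eppk1, Krt5 and Krt14), 0 of 4 tested were called in crypts, 3 were higher and 1 lower of 4 at day 1, and 4 of 5 were higher at day 3. Plectin (Plec), which ties integrin beta4 to keratin, was 2764, 2531 and 2996 in WT and 8648, 9071 and 7469 in Mtgr1-/- at day 3 (1.60 ± 0.10, adjusted p = 1.70e-05), and Dst, the gene of the related linker BPAG1, 1239, 813 and 1147 against 2668, 3831 and 2328 (1.45 ± 0.21, adjusted p = 0.000766). The groups were well apart for both. Of the focal adhesion list, 12 were higher and 4 lower of 29 at day 1 and 15 higher and 2 lower of 30 at day 3. These shares, 55.2% and 56.7%, were near those of all genes, and the median log2 fold changes were 0.071 and 0.22. Vinculin (Vcl) was at 0.91 and 0.97 and paxillin (Pxn) at 0.84 and 0.77, and 0 of 30 genes were called in crypts. The focal adhesion kinase gene Ptk2 was 0.071 and -0.05 and not called (adjusted p = 0.54 and 0.581).

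The other components of basement membrane went in both directions, 4 higher and 5 lower of 13 at day 1 and 4 higher and 6 lower of 13 at day 3, or 69.2% and 76.9% called against 58.9% and 59% of all genes. In crypts, 1 was higher and 3 were lower of 13, or 30.8% called against 4.73% of all genes. Nidogen-1 (Nid1), which links laminin to collagen IV, was 8.07, 0 and 21.3 in WT and 453, 798 and 602 in Mtgr1-/- at day 3 (6.68 ± 0.97, adjusted p = 0.000756). Perlecan (Hspg2), a large heparan sulfate proteoglycan, was 1432, 1217 and 1417 against 78.5, 67.6 and 78.6 (-4.16 ± 0.12, adjusted p = 1.91e-06). Agrin (Agrn), another heparan sulfate proteoglycan, was higher at 2729, 2329 and 2711 against 7981, 6495 and 6476 (1.43 ± 0.11, adjusted p = 3.69e-05). These 3 genes did not overlap between genotypes at day 3, and Hspg2 and Agrn were also called in crypts (-2.72 and 1.02, adjusted p = 0.00451 and 0.0177). Fras1, which anchors embryonic epithelium to its basement membrane, was 112, 86.4 and 135 in WT against 1.14, 1.99 and 1.12.

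Other ligands of integrins were higher in 3 and lower in 2 of 8 tested at day 1, and higher in 7 and lower in 1 of 10 at day 3, or 62.5% and 80% called against 58.9% and 59% of all genes. In crypts, 1 was higher and 2 were lower of 8, or 37.5% called against 4.73% of all genes. Fibronectin (Fn1), the ligand of the alpha5 beta1 integrin, had log2 fold changes of 4.81 ± 0.53 at day 1 and 4.32 ± 0.41 at day 3 (adjusted p = 0.000352 and 0.000104), whereas its receptor chain Itga5 was called at neither. Ccn2, a matricellular ligand, was 54.7, 32.1 and 49.4 in WT and 693, 547 and 491 in Mtgr1-/- at day 3 (3.66 ± 0.23, adjusted p = 1.59e-05).

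Of the collagen processing enzymes, 8 of 19 were higher and 3 lower at day 1, and 9 of 20 higher and 2 lower at day 3. At 57.9% and 55% called, they were near the shares of all genes (58.9% and 59%). In crypts, 1 of 17 was called, and it was higher (5.88% against 4.73% of all genes). The cross-linking oxidase gene Loxl4 was at 3.18 and the lysyl hydroxylase gene Plod2 at -2.68 at day 3. Genes of matrix degradation were 7 higher and 4 lower of 19 at day 1 and 11 higher and 3 lower of 19 at day 3, or 57.9% and 73.7% called. In crypts, 1 was higher and 2 were lower of 20, or 15% called against 4.73% of all genes. Plau (3.27) and Plaur (2.26) of the plasminogen activator system were higher at day 3, and the Paneth cell protease gene Mmp7 (-3.39) was lower.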

How the data were processed

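The authors sequenced stranded mRNA libraries, trimmed reads with fastp 0.20.0, quantified them with Salmon 1.3.0 against a GENCODE transcriptome and ran DESeq2 1.26.0 for each time point (per the methods and the submitters' processing notes). The deposited tables hold normalized counts, a signal of reads divided by 1 scale factor per library, and the authors' own comparison columns (mean score, log2 fold changes, test scores, p-values), which were not used. All 100% of values were whole multiples of 1 read within 0.01 reads in the 18 libraries, so reads were recovered for count tests as alternatives.

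The main test was limma 3.58.1 (R 4.3.3) with a trend on log2(normalized count + 1), two-sided, genotype only, 3 against 3 libraries per table, genes with a mean of at least 10, and Benjamini-Hochberg adjustment over all genes tested. Differences of differences used all 18 libraries with the mouse entered as a random effect (consensus correlation -0.0048). Alternatives were pseudocounts of 0.1 and 8, other filters, median-ratio and quantile scaling, no trend, a replicate block, edgeR 4.0.16, DESeq2 1.42.0, leaving out each library and, added after seeing the data, sex as a covariate, the 12 enteroid libraries alone, the crypt median without WT library 3 and the immune sum without Cd74. At day 1 all 3 same-numbered pairs of mice deviated together (correlations 0.116, 0.231 and 0.216), so the blocked value is given where it changes a call at day 1. In crypts, where these correlations were uneven (0.0764, 0.274 and 0.346), it is given for Itga2, and the other calls added by the block are given as a count only.

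Members and gene lists were chosen with earlier results of these data known. Values by library are given for the largest called changes, the epithelial laminin and collagen receptors with their ligands, and the leukocyte and stromal members, and list genes are named by size of change or, where their role was described, after their values were seen. All 18838 gene identifiers matched GENCODE M21, which gave coordinates and exon lengths. Salmon assigned reads to transcripts, so starts and isoforms are not resolved here. Some genes are not reported here by name or drawn, though counts include them. Scripts were tested on simulated data.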

Additional observations from a re-analysis of the deposited data

Results flagged for a closer look

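The genotype difference of 7 of 28 members tested changed between crypts and day 1 enteroids (limma on all 18 libraries, adjusted p below 0.05), against 41.4% of all 12145 genes. At an unadjusted p below 0.05 there were 9, and the share of all genes at that threshold was not computed. For 6 of the 7 called, the log2 difference, Mtgr1-/- minus WT, was more positive at day 1. Col18a1 changed by 4.85 ± 0.51 (adjusted p = 0.000155), Lama5 by 1.70 ± 0.39 (adjusted p = 0.00426) and Lamb3 by 1.19 ± 0.28 (adjusted p = 0.00463). These are matrix chains whose crypt values were lower in each Mtgr1-/- library than in each WT library. The receptor chains Itgb5, Itga3 and Itgb1 changed by 1.1 ± 0.26, 0.59 ± 0.16 and 0.39 ± 0.12 (adjusted p = 0.00488, 0.0102 and 0.0193). The change of Itgb1 was not called without WT library 2, Mtgr1-/- library 1 or Mtgr1-/- library 3 (adjusted p = 0.143, 0.11 and 0.0738), and that of Itga3 was not called without WT library 2 (0.0599). Itga5 alone changed toward a more negative difference, by -1.73 ± 0.41 (adjusted p = 0.00474).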

How the results depend on the processing

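The 18 calls of day 3 and the 13 of day 1 stayed within 1.5 times under each alternative tried, from 16 to 23 and from 12 to 19 genes, leaving out each replicate included. The 19 were without Mtgr1-/- library 3. In crypts, the 2 calls became 4 with no filter on low values, 1 with quantile normalization, 1 with no trend, 5 with the mouse number as a replicate block (1 higher, 4 lower, Itga2 among them) and 5 with DESeq2 on the recovered reads, and ranged from 0 to 3 when 1 library was left out, with 0 without WT library 1 or Mtgr1-/- library 1 and 3 without Mtgr1-/- library 2. In each crypt fit the cause was not tested. Shares of all genes called were computed for the main fits and for the 12 enteroid libraries alone, and not for the other alternatives. Whether the counts of members follow those over all genes was therefore not tested. The change of the genotype difference from crypts to day 1 was called for 6 to 10 members when 1 library was left out, and that from day 1 to day 3 for 0 to 2, with 2 without Mtgr1-/- library 2 (Lamb1 among them), and for 2 in the 12 enteroid libraries alone.

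The reversed directions were as follows. Under quantile normalization they were Itga6 at day 1 (-0.27), Itgb1 at day 1 (-0.092) and at day 3 (-0.085), Itgb2 at day 1 (0.72) and Itgb7 at day 3 (0.22). With a pseudocount of 8, Itgb2 at day 1 was 0.28 and Itgb7 at day 3 was 0.31. On recovered reads, Itgb2 at day 1 was 1.22 by edgeR and 1.29 by DESeq2, Itgae at day 1 was 0.54 and 0.59, and Itgb7 at day 3 was 1.51 and 1.53. When 1 library was left out, Itgb2 at day 1 ranged from -0.78 to 1.22, Itgae at day 1 from -2.19 to 0.10, Itgb7 at day 3 from -0.47 to 0.75 and Itga6 at day 3 from -0.080 to 0.012. Same-numbered mice deviated together at day 1 (correlations 0.116, 0.231 and 0.216), unevenly in crypts (0.0764, 0.274 and 0.346) and not at day 3 (-0.0067, -0.0023 and -0.016). The block gave 15 calls at day 1, adding Itgb1 and Lamb3, and 18 at day 3. With 3 mice per genotype, only differences well above the spread between mice could be called, and members with few reads could not be judged.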

Other observations

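Among members below the filter, Lama1 had no read in the 9 WT libraries, while each of the 9 Mtgr1-/- libraries had at least 1.1 normalized counts, with means of 5.41 in crypts, 2.73 at day 1 and 4.05 at day 3. Lama4 stood the other way round, with WT means of 9.41, 2.88 and 4.47 and 5 of 9 Mtgr1-/- libraries at 0. Without the filter both were called in crypts. These are levels of a few reads per library.

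Thbs1, a matrix ligand of the list above, was 761, 331 and 536 in WT and 128, 175 and 133 in Mtgr1-/- at day 1 (-1.82 ± 0.29, adjusted p = 0.00145, limma) and overlapped at day 3, at 319, 384 and 197 against 504, 369 and 408. Smoc2, a basement membrane protein gene that marks intestinal stem cells, was 8032, 7843 and 7672 against 943, 485 and 931 at day 3 (-3.38 ± 0.23, adjusted p = 2.42e-05), and Npnt, the ligand of the alpha8 beta1 integrin, was 129, 100.6 and 174 against 778, 623 and 448 (2.19 ± 0.25, adjusted p = 0.000241) while Itga8 reached at most 2.3 in any library.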
